A study of Mus musculus with 18 samples.

Results

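Whole kidney of wild-type mice was compared between 2 and 4 weeks of age, an interval that spans weaning and ends near the start of puberty. The comparison uses 6 of the 18 libraries of the series: 3 labelled WT_2week and 3 labelled WT_4week, taken from the deposited count columns by their labels. The whole series sampled kidney of WT mice and of mice without Ecm1 (extracellular matrix protein 1, a secreted glycoprotein) at 1, 2 and 4 weeks, with 3 libraries in each of 6 groups. Poly(A)-selected RNA was sequenced. The WT animals are described by genotype and age only; strain, sex, litter and weaning day are not in the labels, and KO animals are likewise described only as lacking Ecm1. The labels do not state whether libraries with the same label are different mice. The p-values therefore speak of variation among the sequenced libraries, and some of that variation may be technical.

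At birth the mouse kidney is still making nephrons, and its tubules gain most of their transport capacity after birth. The proximal tubule reabsorbs glucose, phosphate, amino acids and filtered protein and secretes organic anions and cations, work that it powers mainly by oxidising fatty acids. Weaning replaces milk, which is rich in fat, with a diet rich in carbohydrate. In the male mouse, androgen at puberty then switches on a large set of proximal tubule genes, while cell division and deposition of matrix in the growing kidney slow down.

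Promoter stretches of 7 genes are shown because these genes themselves fell (the 4 of cell division) or rose (the 3 of cholesterol synthesis) between these ages, and because they carry the letters that are counted below. Each is the 200 bases before a RefSeq start of the gene (GRCm38.p6), 5′ to 3′ on the gene's own strand. Where a gene has several starts, the stretch with the most matches of the motifs sought is shown, so its counts are maxima. Capitals mark CCAAT or its reverse complement ATTGG, the box bound by NF-Y, and TTTGAA or its reverse complement TTCAAA, the core of the cell cycle homology region. Mcm2 and Cdk1 lie at chr6:88898781-88898980 (minus strand) and chr10:69352913-69353112 (minus strand), and Top2a and Ccnb2 at chr11:99024190-99024389 (minus strand) and chr9:70421555-70421754 (minus strand). Cyp51, Mvd and Hmgcs1 lie at chr5:4104698-4104897 (minus strand), chr8:122443423-122443622 (minus strand) and chr13:119690151-119690350 (plus strand). Cdk1, Top2a and Ccnb2 are outside the rule by which genes are named here and were chosen after their values were seen, because they hold both motifs.
Mcm2: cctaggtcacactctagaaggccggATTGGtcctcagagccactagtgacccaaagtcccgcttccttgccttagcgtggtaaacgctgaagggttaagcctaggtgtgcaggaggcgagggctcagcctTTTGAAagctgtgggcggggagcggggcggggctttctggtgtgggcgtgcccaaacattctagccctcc
Cdk1: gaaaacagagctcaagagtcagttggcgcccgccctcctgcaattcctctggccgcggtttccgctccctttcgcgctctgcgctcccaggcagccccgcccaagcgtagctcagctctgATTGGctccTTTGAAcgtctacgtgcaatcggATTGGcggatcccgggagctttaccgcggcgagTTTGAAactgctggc
Top2a: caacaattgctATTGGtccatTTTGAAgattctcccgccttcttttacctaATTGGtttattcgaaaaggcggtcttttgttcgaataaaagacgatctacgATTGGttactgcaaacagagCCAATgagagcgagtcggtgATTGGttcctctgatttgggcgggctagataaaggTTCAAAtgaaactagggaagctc
Ccnb2: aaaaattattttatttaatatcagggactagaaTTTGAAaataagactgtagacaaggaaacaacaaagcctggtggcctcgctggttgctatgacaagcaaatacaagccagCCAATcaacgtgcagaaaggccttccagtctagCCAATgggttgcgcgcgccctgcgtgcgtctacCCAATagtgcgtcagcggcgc
Cyp51: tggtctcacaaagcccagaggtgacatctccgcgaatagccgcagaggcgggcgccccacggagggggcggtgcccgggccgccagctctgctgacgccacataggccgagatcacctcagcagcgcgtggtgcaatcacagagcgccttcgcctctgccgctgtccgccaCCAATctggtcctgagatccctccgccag
Mvd: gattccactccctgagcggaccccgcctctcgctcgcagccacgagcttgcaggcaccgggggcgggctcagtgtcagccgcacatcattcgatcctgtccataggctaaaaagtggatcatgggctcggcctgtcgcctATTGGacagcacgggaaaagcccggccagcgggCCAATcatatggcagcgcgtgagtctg
Hmgcs1: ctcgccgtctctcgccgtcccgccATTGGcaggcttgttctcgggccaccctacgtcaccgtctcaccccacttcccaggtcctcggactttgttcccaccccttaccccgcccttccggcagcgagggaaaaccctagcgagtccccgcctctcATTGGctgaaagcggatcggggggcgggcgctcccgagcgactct

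Mcm2, a subunit of the replicative helicase, holds 1 CCAAT box and 1 TTTGAA in this stretch. Cdk1, the mitotic kinase, holds 2 of each, Top2a, the topoisomerase that untangles chromosomes, 5 and 2, and Ccnb2, a mitotic cyclin, 3 and 1. The stretch of Cyp51 (sterol demethylase) holds 1 CCAAT box, and those of Mvd (mevalonate decarboxylase) and Hmgcs1 (cytosolic HMG-CoA synthase) hold 2 each. Over windows from 250 bases before to 50 after the start, searched on both strands, CCAAT was present in 4913 of the 11532 tested genes with a window (42.6%), in 23 of 33 cell cycle genes (69.7%), in 20 of 22 cholesterol and lipid synthesis genes (90.9%) and in 13 of 17 clock genes (76.5%). The share of CCAAT was 40.7% in organic anion and cation transport, 31.6% in fibrillar matrix and 18.8% in male-biased genes. In all these shares a gene with several starts counts if any of its windows holds the motif. TTTGAA was present in 14.8% of all genes with a window and in 13 of the 33 cell cycle genes (39.4%). It was also in 6 of 16 male-biased genes (37.5%), 6 of 19 fibrillar matrix genes (31.6%) and 7 of 27 organic ion transport genes (25.9%). It was in 3 of the 22 cholesterol and lipid synthesis genes (13.6%) and in 0 of the 17 clock genes. CAAAGTCCA, a motif of the HNF4 type, was in 64 of the 11532 genes with a window (0.555%). It was in 9 of 279 genes that rose by at least 2 log2 units (3.23%) and in 1 of 434 that fell by as much (0.23%). CACGTG, the E-box read by the clock proteins, was in 11.2% of all genes with a window and in 5 of 17 clock genes (29.4%). TTCNNNGAA, the STAT5 type, was in 8.32% of all genes with a window and in 30 of the 279 (10.8%). A TTCNNNGAA can contain TTTGAA, and a CCAAT can share its last base with a TTTGAA; each motif was counted on its own. These are matches of letters and not measured binding sites.

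Total counts ran from 14930563 to 21427764 per library over the 6 libraries. Levels are given as CPM, a gene's count relative to the TMM-scaled library total, which is not per length and so is compared only within a gene. The libraries hold kidney: Umod, the urinary protein of the thick ascending limb, was at 1448 CPM or above, Lrp2 (megalin) at 2078 or above and Slc34a1 (the proximal phosphate transporter) at 2272 or above in all 6. The targeted gene Ecm1 was at 38.7, 51.7 and 54.7 CPM in WT at 2 weeks and 53.8, 46.3 and 27.3 at 4 weeks, against at most 0.139 in the KO libraries of these ages. By Y-linked genes, 2-week replicate 1 is female and the other 5 WT libraries are male. The same replicate 1 stands apart: its log2 levels correlated with the other 2-week libraries at 0.9644 and 0.9652, against 0.9861 between those. It separates on the second principal component, which holds 13.2% of the variance against 72.0% on the component that separates the ages. Results below that rest on it are given with and without it; without it both ages are male only. The share of counts from mitochondrially encoded genes was 15.2%, 12.8% and 10.1% at 2 weeks and 20.0%, 20.5% and 21.4% at 4 weeks. Haemoglobin, steroidogenic adrenal, muscle and adipose marker lists had 0 or 1 member called in each direction, but blood and fat markers were uneven within an age. The haemoglobin list summed to 312, 568 and 2045 CPM at 2 weeks and 1142, 134 and 433 at 4 weeks. The adipose list had a mean log2 CPM of 0.25, 2.54 and 0.72, then 0.15, 4.02 and 1.56. The part of blood or fat RNA in other genes was not tested.

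Of 14774 genes tested with edgeR's quasi-likelihood test, 7138 (48.3%) differed between the ages at an adjusted p under 0.05, with 3468 (23.5%) higher and 3670 (24.8%) lower at 4 weeks. "Rose", "fell" and "called" refer to that test. Of the genes called higher, 1101 (7.45% of those tested) rose by at least 1 log2 unit and 368 (2.49%) by at least 2. Of those lower, 1760 (11.9%) and 575 (3.89%) fell by as much. Without 2-week replicate 1, 3064 of the risen genes and 3194 of the fallen genes were still called. The split depends on the scale: the median gene moved by -0.05 on TMM scaling, and scaling by library totals alone shifted all genes by a median of -0.48, which gave 1244 higher and 7949 lower. Counts of list members under that second scale are therefore given beside the main ones. The main counts are to be read against the shares of all genes, 23.5% higher and 24.8% lower. Counts by library totals are to be read against 1244 higher and 7949 lower of the same 14774 genes. On that scale falls are far more common than rises among all genes. The p-values come from all 18 libraries in 1 model.

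**Figure D1:**
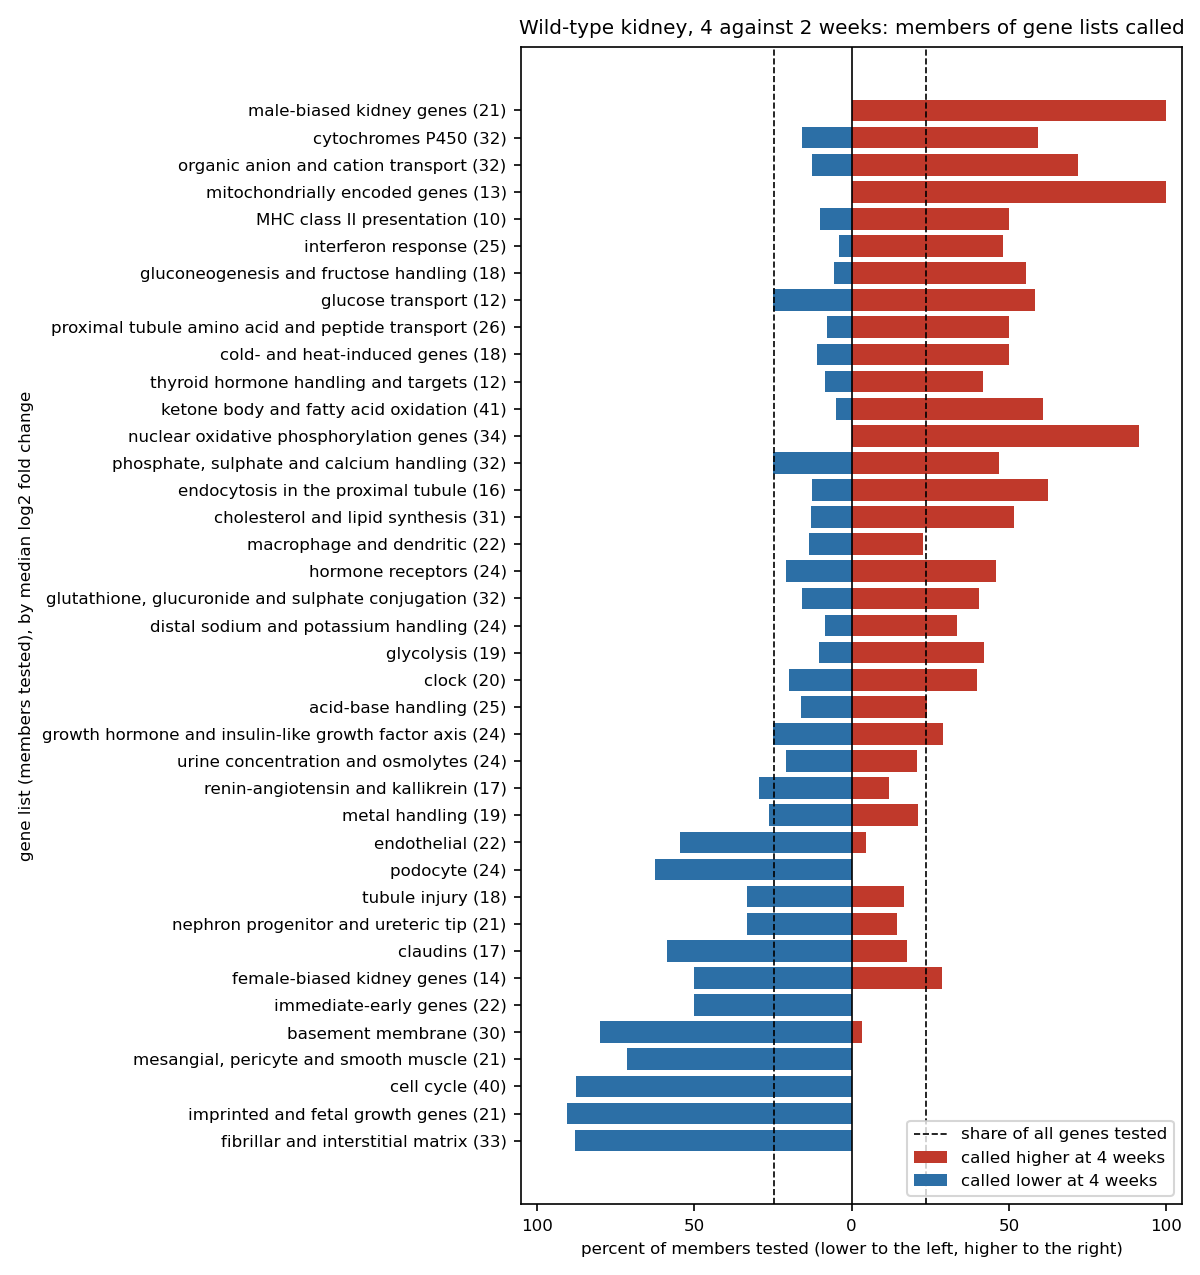
Bars show, for each gene list plotted, the percent of tested members called higher (right, red) and lower (left, blue) at 4 weeks in wild-type kidney, with lists ordered by median log2 fold change and the number tested in brackets; dashed lines mark 23.5% and 24.8%, the shares of all genes. The lists of other tissues (hepatocyte among them), of lymphocytes and plasma cells and of sex chromosome genes are left out. Matrix, imprinted growth and cell cycle lists sit at the bottom with only or nearly only lower members, and the male-biased genes at the top with 21 of 21 higher.

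Genes that were almost silent at 2 weeks and abundant at 4 weeks led the rises. Slco1a1, an organic anion uptake transporter, had a single count in the 3 libraries at 2 weeks (0.0592, 0 and 0 CPM) and was at 128, 511 and 386 CPM at 4 weeks. Nat8f6 had 1 count and then 6527, at 154, 146 and 186 CPM. It belongs to the family of Nat8, the N-acetyltransferase of mercapturic acid formation. Nat8 itself went from 0.237, 0.0948 and 0.374 to 116, 118 and 111 CPM. Nat8f7 and Akr1c18, a steroid-reducing aldo-keto reductase, had no count at 2 weeks and were at least 244-fold and at least 231-fold higher at 4 weeks against a floor of 3 counts per library. Acsm3, a mitochondrial medium-chain acyl-CoA synthetase, was at 1.42, 2.46 and 0.791 CPM at 2 weeks and at 877, 1739 and 1537 at 4 weeks (log2 change 9.80 ± 1.07 SE, n = 3 and 3, edgeR adjusted p = 3.31e-06). In all of these the lowest 4-week library was far above the highest 2-week library. The largest rises were picked among genes without overlap between the ages, so a separation was a condition of the choice. Among abundant genes, Acsm2, a related acyl-CoA synthetase, rose from 596, 734 and 474 to 5261, 6999 and 6600 CPM. Nat8, Ugt2b, Cyp2a, Cyp2d, Cyp4a12 and Mup genes have near-identical copies among which the authors' counting could split reads, so their single-gene values are uncertain.

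The falls were led by genes that were nearly lost. Serpina6, corticosteroid-binding globulin, was at 4386, 2634 and 3357 CPM at 2 weeks, among the most abundant genes that fell, and at 17.2, 0.946 and 2.18 CPM at 4 weeks (log2 change -8.96 ± 1.95 SE, edgeR adjusted p = 0.00141). The 4-week libraries differ widely among themselves in this gene, with replicate 1 highest, but all lie below every 2-week library. The largest falls, too, were picked among genes without overlap. Rdh19, a retinol dehydrogenase family member, went from 105, 98 and 86 to 0.332, 0.27 and 0 CPM. Adamts17, a secreted metalloprotease, went from 18.9, 20.4 and 29 to 0, 0.0676 and 0.273 CPM. Gpr165, an orphan receptor gene, had no count at 4 weeks and was at least 17.9-fold lower. Gli1, the transcription factor and target of hedgehog signalling, fell from 6.52, 2.18 and 4.99 to 0.0665, 0.135 and 0.182 CPM. Apoe, the lipid transport apolipoprotein, fell from 2003, 1255 and 1202 to 222, 156 and 154 CPM (log2 change -3.07 ± 0.35 SE).

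All 21 male-biased kidney genes tested rose, with a median log2 change of 4.59, and 21 were also higher without 2-week replicate 1. By library totals 20 were higher and none lower. Ugt2b38, a glucuronosyltransferase, was at 1.13, 1.61 and 0.874 CPM at 2 weeks and at 932, 943 and 1043 at 4 weeks (log2 change 9.66 ± 0.60 SE, edgeR adjusted p = 3.57e-08). Cyp4b1, a P450 of fatty acid hydroxylation, went from 10.7, 10.2 and 7.74 to 1743, 2106 and 2004 CPM. Akr1c21, a 17-alpha-hydroxysteroid dehydrogenase, went from 9.06, 18.4 and 14.9 to 1261, 1281 and 1312. Each of these moved from a level near the bottom of its range to a tight group of 4-week values, with no overlap. Of all genes tested, 27.3% were higher at 4 weeks without overlap. Kap, the kidney androgen-regulated protein, was already at 5391, 4258 and 3428 CPM at 2 weeks and rose to 15780, 18602 and 18601 (log2 change 2.02 ± 0.25 SE). Odc1, the rate-limiting enzyme of polyamine synthesis and a classic androgen target in mouse kidney, rose from 112, 150 and 149 to 571, 948 and 760. Cyp7b1, an oxysterol and steroid hydroxylase, rose from 6.57, 4.41 and 4.91 to 79, 156 and 148. Nudt19, a peroxisomal CoA hydrolase, and Serpina1f, a serpin, rose by 2.89 ± 0.24 and 4.23 ± 0.30. Slc7a13, the aspartate and cystine transporter of the late proximal tubule, rose by 2.61 ± 0.46.

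The 4-week libraries differ in this list. Replicate 1 was the lowest of the 3 in 20 of the 21 male-biased genes, as in Slco1a1 and Cyp7b1 above. It was the lowest in 45.6% of all genes that rose, and in 252 of the 368 that rose by at least 2 log2 units (68.5%). The mean log2 CPM of the list was 7.96 in replicate 1 and 8.6 and 8.5 in replicates 2 and 3, against 2.82 to 3.18 at 2 weeks.

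**Figure D2:**
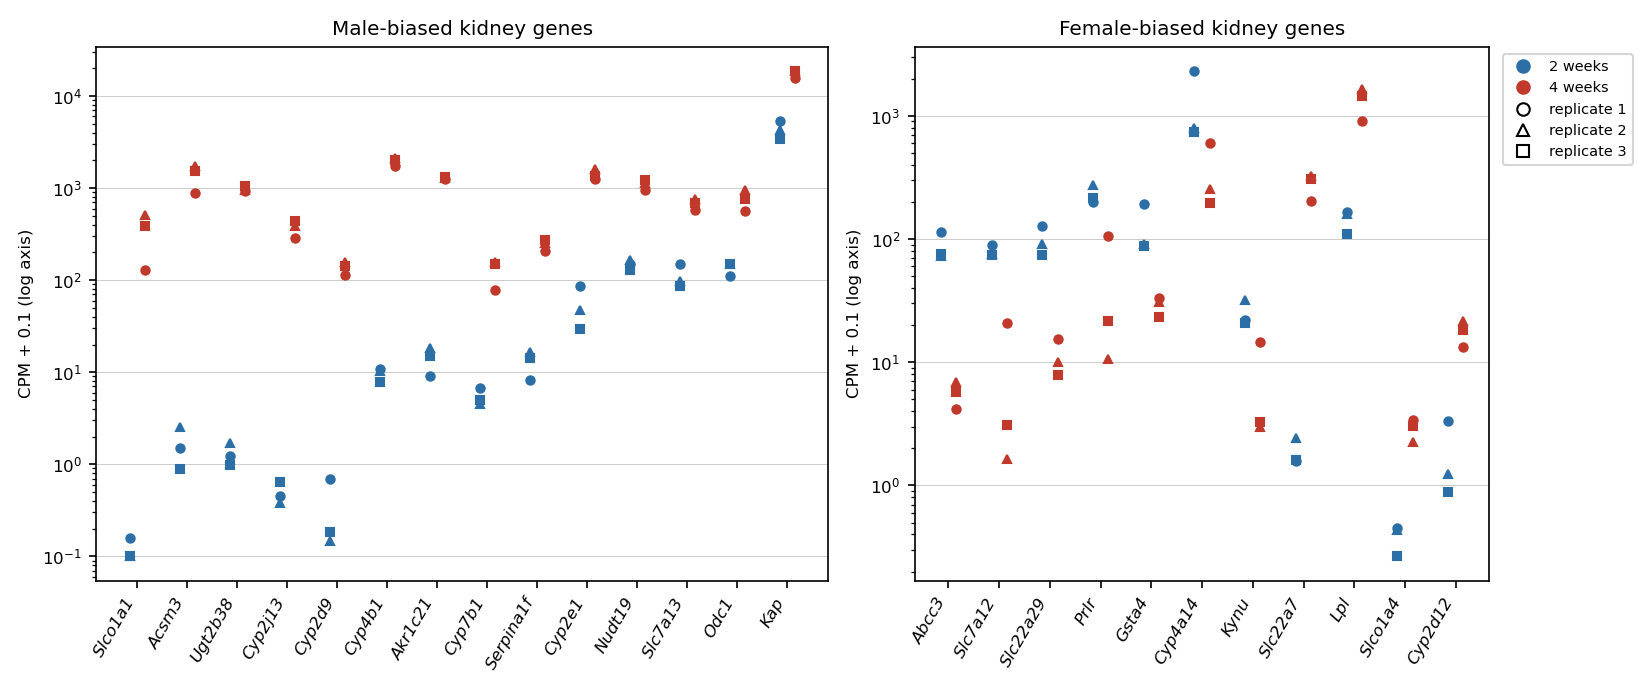
Each point is the level (CPM + 0.1, log axis) of a gene in 1 wild-type library at 2 weeks (blue) or 4 weeks (red), with marker shape for the replicate; male-biased genes are on the left and female-biased on the right. All male-biased genes plotted separate by age, and 27.3% of all genes tested were higher at 4 weeks without overlap. The female-biased genes plotted fall from Abcc3 to Kynu and rise from Slc22a7 to Cyp2d12. Both panels show a selection of their list, and female-biased genes that were not called are left out.

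Female-biased genes moved in both directions: 7 of 14 fell and 4 rose, with a median of -1.12, and without 2-week replicate 1, the female library, 7 fell and 5 rose. By library totals 8 were lower and 4 higher. Abcc3, a basolateral efflux pump for conjugates, fell from 113, 73 and 75.2 to 4.06, 6.82 and 5.63 CPM (log2 change -3.98 ± 0.73 SE, edgeR adjusted p = 0.000338). Slc7a12, an amino acid transporter, fell from 89.7, 74.9 and 74 to 20.6, 1.55 and 3. Prlr, the prolactin receptor, fell from 200, 276 and 216 to 105, 10.5 and 21.4 (log2 change -2.34 ± 0.55 SE, edgeR adjusted p = 0.0024). Replicate 1 was the highest 4-week library in 6 of these 7 falling genes, against 35.8% of all genes that fell. The risers went against the list's name: Slc22a7, an organic anion transporter that female mice express more, rose from 1.48, 2.32 and 1.5 to 203, 322 and 304 CPM in libraries that are all male at 4 weeks. Lpl, lipoprotein lipase, rose from 166, 160 and 110 to 909, 1659 and 1449.

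Receptors for the hormones of growth and puberty changed on both sides. Of 24 hormone receptor genes, 11 rose and 5 fell (median 0.33). By library totals 4 were higher and 10 lower, against 1244 and 7949 of all 14774 genes. Ghr, the growth hormone receptor, rose from 166, 127 and 134 to 774, 917 and 813 CPM (log2 change 2.55 ± 0.27 SE, edgeR adjusted p = 2.72e-06). Local Igf1, the growth factor that growth hormone induces in liver and other tissues, went the other way, from 64, 97.2 and 83.7 to 17, 15.9 and 23.4 CPM (-2.13 ± 0.21). Within the growth hormone and insulin-like growth factor axis 7 of 24 rose and 6 fell, near the shares of all genes (23.5% and 24.8%). The median was 0.01, and by library totals 4 were higher and 11 lower. Igf2r, which clears IGF2, rose by 1.16 ± 0.15 and Stat5a, the transducer of growth hormone signals, by 1.11 ± 0.20. Pappa and Pappa2, the proteases that free IGF from its binding proteins, fell (-1.53 ± 0.20 and -2.79 ± 0.65), and Stc1 and Stc2, secreted inhibitors of those proteases, fell (-2.38 ± 0.35 and -2.30 ± 0.26). Of 12 thyroid hormone genes 5 rose and 1 fell, and by library totals 2 were higher and 1 lower. Thrb, the beta receptor, rose by 0.68 ± 0.16 and Thra, the alpha receptor, fell by 0.77 ± 0.16.

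Most genes for transport of organic anions and cations rose. Of 32 genes, 23 rose and 4 fell, with a median of 1.57 against -0.05 over all genes. By library totals 21 were higher and 5 lower, and without 2-week replicate 1 the counts were 23 and 3. The basolateral uptake carrier Slc22a6 (OAT1) rose from 79.6, 186 and 147 to 984, 1072 and 1122 CPM (log2 change 2.94 ± 0.29 SE, edgeR adjusted p = 1.52e-06). Slc22a12, the apical urate exchanger URAT1, rose from 176, 252 and 201 to 1468, 1854 and 1899 (3.05 ± 0.22). For cations, the uptake carrier Slc22a2 (OCT2) rose from 34.1, 59.4 and 46.6 to 252, 320 and 329, and the apical extruder Slc47a1 (MATE1) from 216, 201 and 144 to 623, 642 and 645. None of these 4 genes had overlapping libraries, and they cover uptake from blood and exit to urine. Of all genes tested, 27.3% were higher at 4 weeks without overlap, and these 4 were named for their small p. The urate and phosphate-related transporter Slc17a1 rose by 1.85 ± 0.16, and Slc22a19 (OAT5) by 2.23 ± 0.24. The falling members were Abcc3 and Slc22a29, given or plotted above as female-biased, Slc22a27, and Slco4c1, which the naming rule does not cover and which was named after its value was seen (-0.82, and -0.59 with an edgeR adjusted p of 0.132 without 2-week replicate 1). Slc22a27, another organic anion transporter of this cluster, went from 19.7, 11.8 and 13.6 to 1.2, 0.27 and 0.363 CPM.

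**Figure D3:**
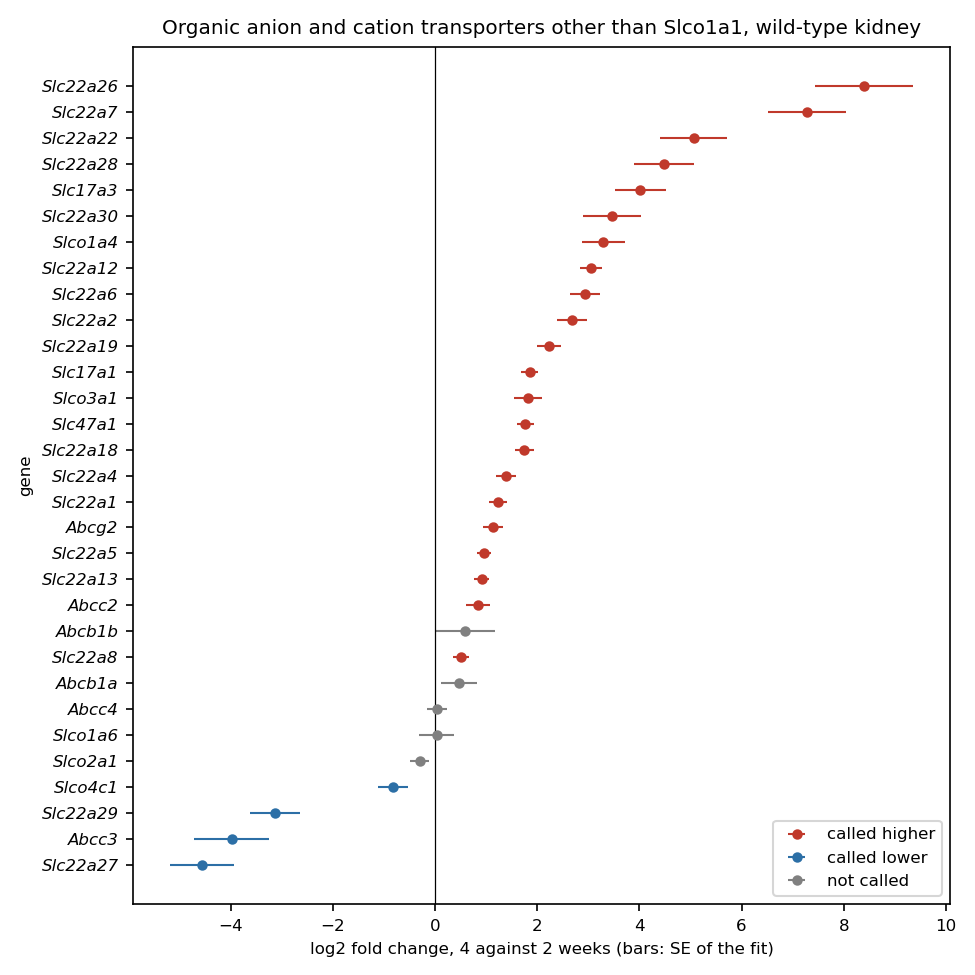
Points are fitted log2 fold changes of 31 organic anion and cation transporters between 4 and 2 weeks in wild-type kidney, with bars of 1 SE, in red where called higher, blue where called lower and grey where not called. The rises run from 0.51 (Slc22a8) to 8.39 (Slc22a26) and the falls from -0.82 (Slco4c1) to -4.56 (Slc22a27). Slco1a1 is left out because its 2-week level is 1 count. Changes of genes near 0 at 2 weeks, such as Slc22a26 itself, depend on the prior count of edgeR's fit, which is not the prior count of 2 used for log2 CPM.

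Many genes for reabsorption of the filtered load rose. Of 26 amino acid and peptide transport genes 13 rose and 2 fell (median 0.63; by library totals 9 and 5; without 2-week replicate 1, 16 and 1). Ggt1, the brush border enzyme that cleaves glutathione, rose from 464, 429 and 411 to 1204, 1343 and 1383 CPM, and Slc36a1, a proton-coupled amino acid transporter, from 32.9, 44.2 and 40.8 to 129, 130 and 113. Slc6a20b, a proline transporter, rose by 1.27 ± 0.19 while its neighbour in the family Slc6a20a fell by 0.90 ± 0.20. Of 12 glucose transport genes 7 rose and 3 fell (median 0.68; by library totals 3 and 3). Slc5a2 (SGLT2), which takes up most filtered glucose, rose from 194, 294 and 185 to 509, 526 and 501, and Slc5a11, the myo-inositol carrier SMIT2, from 17.5, 28.3 and 17.9 to 58.2, 58.1 and 71.9. Slc2a9, the basolateral urate carrier, fell by 1.00 ± 0.29 (edgeR adjusted p = 0.00905), and without 2-week replicate 1 its change was -0.59 with an adjusted p of 0.0672. Of 16 genes of protein endocytosis 10 rose and 2 fell (median 0.43), but by library totals 1 was higher and 4 lower. The receptor Lrp2 rose from 2078, 2382 and 2114 to 3756, 3968 and 3558, and Amn (amnionless, the partner of cubilin) by 0.91 ± 0.14. The phosphoinositide phosphatase Ocrl fell by 0.58 ± 0.10.

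Of 32 genes of phosphate, sulphate and calcium handling 15 rose and 8 fell (median 0.47; by library totals 9 and 13). Slc34a1 rose from 2383, 3016 and 2272 to 5857, 5397 and 5578 CPM (log2 change 1.13 ± 0.17 SE, edgeR adjusted p = 7.11e-05). Slc26a1, the sulphate exchanger, rose by 1.46 ± 0.23. The vitamin D receptor Vdr rose from 191, 185 and 159 to 368, 373 and 398, and Kl (klotho, the FGF23 co-receptor) from 508, 788 and 716 to 1374, 1360 and 1338. The activating hydroxylase Cyp27b1 was at 231, 22 and 65.2 CPM at 2 weeks and 39.6, 21.3 and 14.5 at 4 weeks. Its call (-2.06 ± 0.70, edgeR adjusted p = 0.0229) rests on 2-week replicate 1, without which the change was -0.79 with an adjusted p of 0.298. The paracellular calcium and magnesium claudins of the thick limb, Cldn16 and Cldn19, fell (-1.03 ± 0.14 and -1.58 ± 0.24).

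Further along the nephron, members of each list moved in both directions. Of 24 urine concentration genes 5 rose and 5 fell, of 24 distal sodium and potassium genes 8 rose and 2 fell, and of 25 acid-base genes 6 rose and 4 fell. Of all genes tested 23.5% rose and 24.8% fell, and most of these counts lie near or below those shares. By library totals the counts of the lists became 2 and 11, 3 and 10, and 3 and 13. On that scale 1244 of all 14774 genes were higher and 7949 lower. Without 2-week replicate 1, 8 urine concentration, 1 distal and 2 acid-base genes fell. Without 2-week replicate 3, 3 urine concentration and 4 distal genes rose, and without 4-week replicate 3, 4 distal genes rose and 2 acid-base genes fell. Umod rose from 1448, 1918 and 1698 to 3860, 3878 and 5144 CPM (log2 change 1.35 ± 0.20 SE, edgeR adjusted p = 5.54e-05). Pvalb, the calcium buffer of the early distal convoluted tubule, rose from 0.296, 1.09 and 0.707 to 14.5, 15.8 and 15.7 (4.41 ± 0.90). Kcnj15 and Kcnj16, potassium channels of the basolateral membrane, rose by 1.33 ± 0.30 and 0.86 ± 0.12. Sgk1, the aldosterone- and osmolality-induced kinase, fell from 427, 336 and 385 to 151, 160 and 163. Nfat5, the tonicity-responsive transcription factor, fell by 0.92 ± 0.18, and its target Slc6a12, the betaine transporter, fell from 2.43, 13.5 and 9.32 to 1.2, 1.62 and 1.73. The 2-week libraries differ in such medullary genes: Akr1b3 (aldose reductase) was at 37.3, 299 and 432 CPM and Slc14a1 (a urea transporter) at 5.09, 26 and 22.8, both lowest in replicate 1. Neither was called with all libraries, and Slc14a1 was called lower without that replicate (-1.69, edgeR adjusted p = 0.0154). Whether the share of medulla in the pieces differed was not tested. Car4 and Car14, membrane carbonic anhydrases of bicarbonate reabsorption, rose by 1.93 ± 0.17 and 1.36 ± 0.24. Atp6v1b1, the proton pump subunit of intercalated cells, fell by 0.97 ± 0.16.

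Claudins, which set the leak between tubule cells, mostly fell: 10 of 17 fell and 3 rose (median -1.03; by library totals 11 and 0). Cldn6, a claudin of immature epithelium, fell from 11.7, 5.02 and 8.74 to 0.332, 0.338 and 1.45 CPM (log2 change -3.68 ± 0.47 SE, edgeR adjusted p = 1.39e-05). Cldn4 and Cldn7 of the collecting duct fell (-1.10 ± 0.26 and -1.06 ± 0.14). Cldn12 rose by 0.55 ± 0.10 and Cldn10 by 0.53 ± 0.16. In the renin and kallikrein list, 2 of 17 rose and 5 fell, against 23.5% and 24.8% of all genes. Ren1 (renin) fell from 111, 213 and 297 to 82.8, 67.2 and 101, and Klk1 (tissue kallikrein) was at 118, 846 and 579 and then at 1664, 1740 and 1618 (1.70 ± 0.48, edgeR adjusted p = 0.00823). The female replicate 1 was the lowest 2-week library for both, and Ren1 lost its call without 2-week replicate 3. Epo, erythropoietin, was at 0, 0.995 and 3.74 CPM at 2 weeks and had no count at 4 weeks, at least 7.03-fold lower, a call that was lost without 2-week replicate 3.

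Many genes of ketone and fat use rose on TMM scaling. Of 41 genes of ketone bodies and fatty acid oxidation 25 rose and 2 fell (median 0.59). By library totals 12 were higher and 10 lower, against 1244 and 7949 of all 14774 genes. Cyp4a14, a PPAR-alpha target that hydroxylates fatty acids, fell from 2290, 789 and 733 to 605, 253 and 194 CPM (log2 change -1.86 ± 0.49 SE, edgeR adjusted p = 0.00562). For it, 2-week replicate 1 was the highest library, and the change without it was -1.12 (edgeR adjusted p = 0.0477). Among enzymes that consume ketones, Oxct1, the succinyl-CoA transferase, went from 347, 679 and 407 to 1942, 2168 and 2065, and Bdh1, the hydroxybutyrate dehydrogenase, from 70.2, 71.1 and 55.5 to 228, 290 and 279. In the oxidation of fatty acids, Acadm (the medium-chain dehydrogenase) rose by 1.73 ± 0.19, Acads (the short-chain form) by 1.11 ± 0.10 and Etfb (which carries their electrons) by 0.93 ± 0.09. Cd36, the fatty acid uptake receptor, rose from 72.1, 27.2 and 28 to 354, 828 and 744.

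Mitochondrially encoded transcripts rose together. All 13 mitochondrially encoded genes rose (median 1.21), with 13 of 13 also higher by library totals. mt-Co1, the catalytic subunit of cytochrome oxidase, went from 53005, 42807 and 34515 to 89410, 83181 and 90480 CPM, and mt-Nd2 of complex I from 6865, 5258 and 3145 to 13892, 17937 and 18548. Nuclear genes of oxidative phosphorylation rose in 31 of 34 cases (median 0.55) on TMM scaling, whereas by library totals 5 were higher and 1 lower, and without 2-week replicate 3 the TMM count was 19. Ndufv1 of complex I rose by 0.78 ± 0.09 and Sdha of complex II by 0.71 ± 0.10.

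In sterol and fat synthesis 16 of 31 genes rose and 4 fell (median 0.43; by library totals 10 and 11). Scd1, the stearoyl-CoA desaturase, rose from 13.7, 29.2 and 11.7 to 1405, 1389 and 1385 CPM (log2 change 6.26 ± 0.86 SE, edgeR adjusted p = 2.67e-05), while Scd2, the form of immature tissues, fell from 285, 337 and 339 to 161, 139 and 159. The 3 cholesterol genes whose promoters are printed above rose: Cyp51 from 44.7, 75.8 and 66.5 to 360, 366 and 342 CPM, Mvd from 17.4, 21.1 and 15.9 to 47.1, 51.5 and 52.4, and Hmgcs1 from 402, 472 and 495 to 742, 921 and 888. Me1, malic enzyme, a source of NADPH for lipid synthesis, rose by 2.26 ± 0.23, and Elovl6, the elongase of palmitate, fell by 1.67 ± 0.20. Of 18 genes of glucose production and fructose use 10 rose and 1 fell (median 0.80; by library totals 8 and 2). Khk, ketohexokinase, which starts fructose breakdown, rose from 231, 194 and 150 to 422, 442 and 489 and Slc5a10, a fructose and mannose carrier, from 93.2, 36.3 and 36.4 to 185, 174 and 189. Sord, sorbitol dehydrogenase, rose by 1.21 ± 0.20. Of 19 glycolysis genes 8 rose and 2 fell, but by library totals 2 were higher and 7 lower. Without 2-week replicate 3, or 4-week replicate 2 or 3, 1 fell. Pgk1 rose by 0.94 ± 0.12 and the glucose carrier Slc2a1 fell by 0.70 ± 0.17.

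Some enzymes of detoxification rose. Of 32 cytochromes P450 19 rose and 5 fell (median 2.56; by library totals 19 and 9). Leaving out 2-week replicate 1 or 4-week replicate 3 left 2 falling members, and leaving out 4-week replicate 1 or 2 left 3. Cyp2a5 rose from 0.888, 1.04 and 0.416 to 103, 92.1 and 67 CPM (log2 change 6.82 ± 0.40 SE, edgeR adjusted p = 2.34e-08) and Cyp2j11, of the arachidonate epoxygenase family, from 27.7, 38.1 and 21.6 to 297, 268 and 255. Cyp2d9 rose from 0.592, 0.0474 and 0.0832 to 114, 156 and 141. Of 32 conjugation genes 13 rose and 5 fell (median 0.33; by library totals 10 and 7). Gclc, the rate-limiting enzyme of glutathione synthesis, rose from 242, 162 and 147 to 507, 591 and 542, and Gss, the next enzyme, by 1.18 ± 0.16. Gstp1 and Gstm1, glutathione transferases, rose by 1.49 ± 0.14 and 1.34 ± 0.14, while Gsta4 fell from 190, 91.2 and 87.2 to 32.9, 30.9 and 23.3. The UDP-glucuronosyltransferases of the Ugt1a cluster share exons. Among them, Ugt1a2 fell from 872, 494 and 364 to 25.9, 6.49 and 5 while Ugt1a7c rose from 123, 79.5 and 68.5 to 546, 569 and 552. Of 19 metal-handling genes 4 rose and 5 fell, near the shares of all genes (23.5% and 24.8%). Without 2-week replicate 1, 3 rose and 1 fell. Without 2-week replicate 3 or 4-week replicate 1, 3 fell, and without 4-week replicate 2, 2 fell. Slc39a14, a zinc and iron importer, rose by 1.99 ± 0.21 and Fth1 (ferritin heavy chain) by 1.36 ± 0.18. Mt1, metallothionein, was at 284, 108 and 154 CPM at 2 weeks and 68.5, 70.3 and 97 at 4 weeks, a call (-1.21 ± 0.42, edgeR adjusted p = 0.0265) that was lost without 2-week replicate 1 (-0.74, adjusted p = 0.161).

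Transcripts typical of liver also appeared at low level at 4 weeks. Mup18, a major urinary protein, was at 0 in the 2-week libraries and at 3.79, 9.8 and 11 CPM at 4 weeks, at least 55.3-fold higher. Cyp2c29 went from 0 to 1.4, 3.99 and 4 CPM, at least 21.1-fold. Of 14 hepatocyte markers 7 rose and none fell (median 3.67; by library totals 6 and 1), and none was at 0 in all 6 libraries. Alb was at 4.26, 9.9 and 0.291 CPM at 2 weeks and 124, 272 and 340 at 4 weeks, and Cps1 at 0.0592, 0.379 and 0.0416 and then 3.12, 10.9 and 12.6. Their summed level was 322 to 560 CPM at 2 weeks and 432 to 799 at 4 weeks, with Serpina1a, which was not called, at 300, 142 and 332 and then 72.7, 101 and 148. The part of liver RNA in the rises of Mup18 and Cyp2c29 was not tested; in all of Alb, Cps1, Mup18 and Cyp2c29 replicate 1 was the lowest 4-week library.

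Most cell division genes fell. Of 40 cell cycle genes 35 fell and none rose, with a median of -1.37, and by library totals 39 were lower and none higher. Without 2-week replicate 1, 36 fell. Mcm6 of the replicative helicase fell from 69, 75.6 and 97.5 to 32.8, 30.5 and 35.5 CPM (log2 change -1.30 ± 0.15 SE, edgeR adjusted p = 6.99e-06). Uhrf1, which copies DNA methylation at the fork, fell from 14.9, 24.5 and 32.1 to 4.06, 5.54 and 5.63, and Bub1b of the spindle checkpoint from 10.1, 15.9 and 20.6 to 4.39, 4.73 and 3. Mcm2, Cdk1, Top2a and Ccnb2, whose promoters are printed above, fell (-1.09 ± 0.16, -1.38 ± 0.31, -1.60 ± 0.36 and -1.38 ± 0.26). At 2 weeks replicate 1 had the lowest mean log2 CPM of the list, 3.44 against 4.11 and 4.32, and all 4-week libraries (2.52 to 3.07) were below it. In bulk tissue, fewer cells of a kind and less RNA per cell cannot be told apart.

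Most imprinted and fetal growth genes fell: 19 of 21 fell and none rose (median -1.91), and by library totals 21 were lower. Mest, an imprinted growth gene, fell from 23.1, 23.8 and 30.9 to 2.73, 4.73 and 3.54 CPM (log2 change -2.82 ± 0.22 SE, edgeR adjusted p = 1.83e-07). Igf2bp3, a fetal RNA-binding protein of Igf2 mRNA, fell from 3.14, 1.33 and 2.87 to 0.199, 0.0676 and 0.363, and Ndn by 1.91 ± 0.22. The transcription factors Sox4 and Sox11 fell (-1.89 ± 0.24 and -3.46 ± 0.46). Of 21 nephron progenitor and ureteric tip genes 7 fell and 3 rose (median -0.71; by library totals 15 lower and none higher). Ncam1, an adhesion molecule of nephrogenic mesenchyme, fell from 21.3, 21.5 and 28.5 to 3.79, 4.8 and 4.72, and Wnt11 of the ureteric tip changed by -2.01 ± 0.25. Etv5 and Lhx1 rose by 0.80 ± 0.25 and 0.54 ± 0.15.

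**Figure D4:**
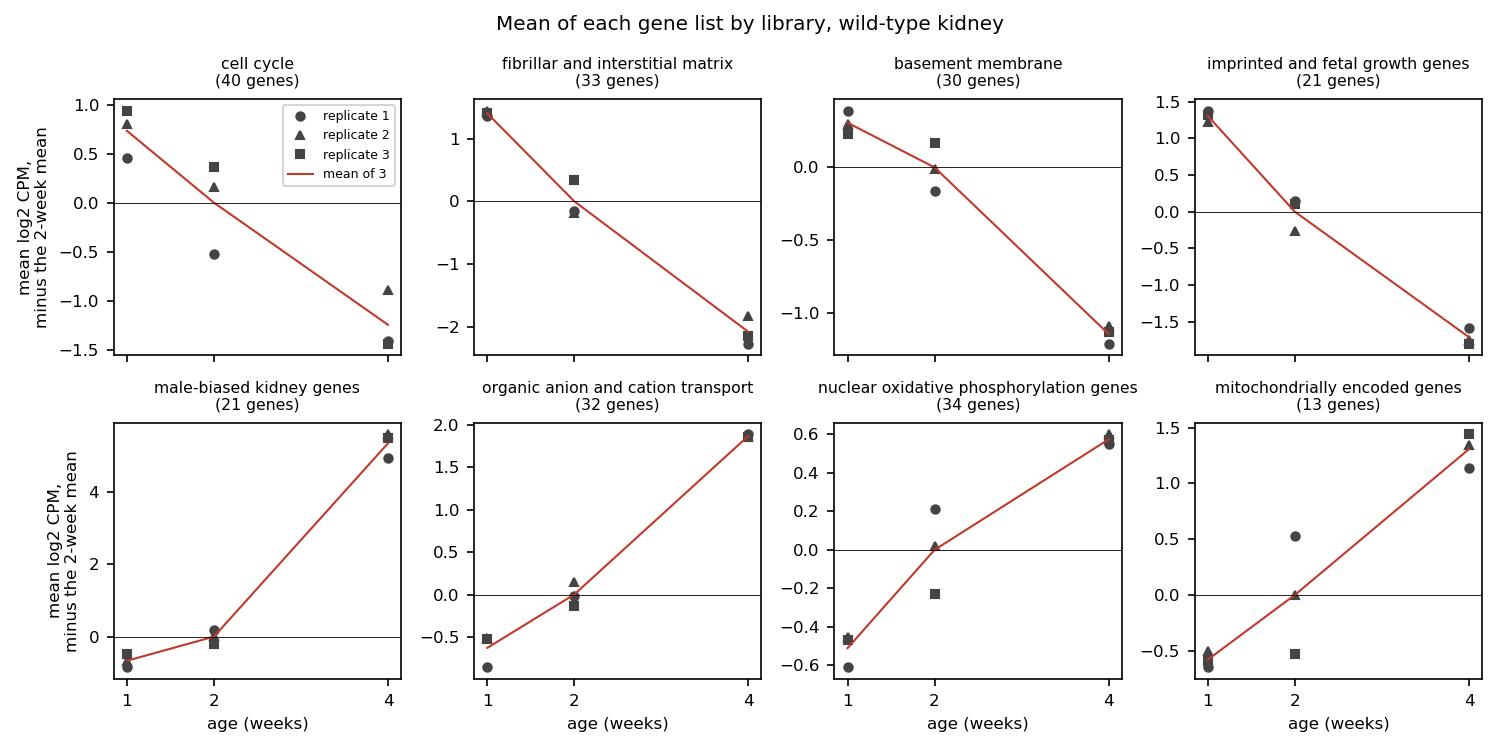
Each panel shows the mean log2 CPM of a gene list in each wild-type library at 1, 2 and 4 weeks, minus the mean of the 2-week libraries; points are libraries (3 per age) and the line joins the means. The male-biased genes and transporters lie 4.94 to 5.59 and 1.86 to 1.89 above the 2-week mean at 4 weeks, and the fibrillar matrix genes 1.82 to 2.27 below it.

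Matrix genes fell almost throughout. Of 33 genes of fibrillar and interstitial matrix 29 fell and none rose, with a median of -2.31 against -0.05 over all genes, and by library totals 31 were lower. Col3a1, of the interstitial fibrils, fell from 637, 528 and 831 to 69.9, 98.6 and 95.2 CPM (log2 change -2.92 ± 0.34 SE, edgeR adjusted p = 6.70e-06). Postn (periostin), a matrix protein of growing and injured tissue, fell from 81.3, 84 and 105 to 2.66, 6.82 and 4.81. The elastic fibre genes fell alike: Eln, elastin, from 130, 102 and 132 to 18.6, 16.8 and 18.4, while Fbn1 and Mfap2 of its microfibrils changed by -2.77 ± 0.32 and -3.80 ± 0.26. Sparc, a collagen chaperone of the matrix, fell by 1.58 ± 0.16.

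Of 30 basement membrane genes 24 fell and 1 rose (median -1.19; by library totals 25 and 1). Col4a1, the ubiquitous collagen IV chain, fell from 2056, 1720 and 2081 to 677, 706 and 762 CPM (log2 change -1.45 ± 0.14 SE, edgeR adjusted p = 8.79e-07), and its partner Col4a2 by 1.52 ± 0.14. Col4a3, a chain of the mature glomerular network, was at 398, 756 and 647 and then 708, 775 and 766, and was not called. Npnt, nephronectin, fell from 1012, 1175 and 1297 to 313, 312 and 377, and Hspg2 (perlecan) from 448, 456 and 516 to 156, 168 and 166. The riser was Lama3, a laminin chain of epithelia, from 12.9, 16.3 and 14.1 to 96.3, 113 and 99.7. The laminins Lamb1 and Lamc1 fell (-1.16 ± 0.10 and -1.82 ± 0.14).

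Many markers of the glomerulus and vessels fell. Of 24 podocyte genes 15 fell (median -0.53; 11 without 2-week replicate 1; 9 without 4-week replicate 3; 20 by library totals), of 21 mesangial, pericyte and smooth muscle genes 15 (median -1.31; 16; 18) and of 22 endothelial genes 12 (median -0.50; 14; 21). No podocyte or mural gene of these lists rose, and 1 endothelial gene did, a call that was lost by library totals and when any library of this step but 2-week replicate 3 was left out. Tcf21, a transcription factor of podocytes and stroma, fell from 24.9, 53.9 and 70.3 to 10.1, 12.2 and 7.99 CPM (log2 change -2.30 ± 0.38 SE, edgeR adjusted p = 0.000162), and Kirrel, the slit diaphragm protein Neph1, from 59.9, 48.5 and 57.4 to 15.9, 19 and 19.5. Nphs1 (nephrin), which defines the podocyte but was named after its value was seen, was not called (-0.33 ± 0.17). Itga8, the nephronectin receptor of mesangial cells, fell from 76.9, 84.4 and 94.2 to 15.8, 19.9 and 18.6. Notch3 and Mcam of mural cells fell (-1.52 ± 0.20 and -1.80 ± 0.14). Aplnr, the apelin receptor of sprouting vessels, fell from 45, 68.8 and 78.5 to 17.2, 14.5 and 18.5, whereas Pecam1 fell by 0.70 ± 0.09 and Kdr was not called (0.07 ± 0.13). In the tubule injury list 3 of 18 rose and 6 fell, against 23.5% and 24.8% of all genes. Clu, clusterin, rose by 1.28 ± 0.15, and Vim and Anxa3 fell (-1.52 ± 0.26 and -1.48 ± 0.12).

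Some antigen presentation genes rose. Of 10 MHC class II genes 5 rose and 1 fell (median 0.89; by library totals 4 and 1; without 2-week replicate 1, 6 and 0). The fall of that member was also lost without 4-week replicate 2 or 3. H2-Aa rose from 21.3, 18.9 and 18.4 to 67.7, 53.6 and 74.8 CPM (log2 change 1.74 ± 0.17 SE, edgeR adjusted p = 1.24e-06) and Cd74, the invariant chain, from 29.3, 41.3 and 39.9 to 136, 107 and 135. Ciita, their master activator, rose from 0.711, 1.52 and 1.54 to 2.39, 2.3 and 3.82. Of 22 macrophage and dendritic cell markers 5 rose and 3 fell, near the shares of all genes or below; 3 rose without 2-week replicate 1, 3 without 2-week replicate 2 and 2 without 4-week replicate 3. Csf1r, the macrophage growth factor receptor, rose by 0.55 ± 0.11 and Mrc1, the mannose receptor of resident macrophages, fell by 1.22 ± 0.18. Of 11 lymphocyte and plasma cell genes 1 rose and 2 fell, and 1 fell without 2-week replicate 3 or 4-week replicate 2 or 3. Of 25 interferon-response genes 12 rose and 1 fell (median 0.83), but 7 rose without 2-week replicate 1, 7 without 4-week replicate 2, and 4 were higher by library totals. The single fall was lost without 2-week replicate 2 or 3, or 4-week replicate 1 or 3. Irf7 rose from 2.07, 6.07 and 5.12 to 18.1, 18.6 and 21.9 CPM, and without replicate 1 by 1.80 with an adjusted p of 0.000164.

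Clock genes moved in both directions: 8 of 20 rose and 4 fell, against 23.5% and 24.8% of all genes. By library totals 5 were higher and 9 lower, against 1244 and 7949 of all 14774 genes. The E-box targets Nr1d1 (REV-ERB-alpha) and Dbp rose from 45.9, 19.3 and 15.9 to 82.4, 88.9 and 113 CPM and from 17.1, 13.6 and 12.4 to 93.2, 43.1 and 31.7. Cry1, a repressor, fell from 24.6, 19.7 and 22.6 to 7.31, 4.93 and 4.36 (edgeR adjusted p = 2.47e-05), and Per1 fell by 1.42 ± 0.38. The hour of collection is not in the labels, and time of day and age cannot be told apart. The cold-induced RNA-binding proteins Cirbp and Rbm3 were highest in 2-week replicate 1. Cirbp was at 109, 12.6 and 23 and then 9.84, 8.71 and 9.08, a call (-2.38 ± 0.72, edgeR adjusted p = 0.0121) that was lost without that replicate (-0.95, adjusted p = 0.19). Rbm3 fell from 421, 176 and 244 to 56.9, 52.5 and 56.8, and also without it (-1.92, edgeR adjusted p = 7.83e-05). The chaperones Hspd1 and Hspa8 rose by 1.08 ± 0.14 and 0.89 ± 0.15. Of 22 immediate-early genes 11 fell and none rose (median -1.17; 18 lower by library totals). In 10 of those 11, 2-week replicate 3 was the highest 2-week library, and without it 4 fell. Without 4-week replicates 1, 2 and 3, 6, 7 and 6 fell. Nr4a1, an orphan nuclear receptor induced within minutes of a stimulus, was at 10.7, 26.7 and 122 and then 2.79, 2.5 and 1.91.

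The 1-week WT libraries place this step in a longer course, with the 2-week libraries shared by both steps, so only values are set side by side. Replicates 1 and 3 at 1 week are female and replicate 2 is male. Replicate 3 also stands apart in markers of other tissues, with a mean log2 CPM of 5.14 for 6 adrenal genes against 0.38 and 0.39 in replicates 1 and 2, and of 4.69 for 14 hepatocyte genes against 0.25 and 0.74. Serpina6, which liver expresses strongly, was at 636, 1027 and 1004 CPM in the 1-week libraries, against means of 3459 at 2 weeks and 6.78 at 4 weeks. Replicate 3 lay below replicate 2 in this gene. Prlr was at 57.3, 80.9 and 81.3 CPM at 1 week, against means of 231 and 45.5 later, and Kap at 853, 1331 and 1151, against 4359 and 17661. The male 1-week library was the highest for Kap and lay within the female range for Prlr. Acsm2 had means of 151, 601 and 6287 CPM at 1, 2 and 4 weeks. Acsm3 had means of 1.71, 1.56 and 1384. Smoc2, a basement membrane protein of the SPARC family named after its values were seen, had means of 97.6, 104 and 7.4 CPM. Frem1, chosen in the same way, was at 187, 52.8 and 3.85.

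The same step in Ecm1 KO kidney called 5447 genes (36.9%), 2690 of them higher (18.2%) and 2757 lower (18.7%). The direct test of WT step minus KO step, which shares no library between its arms, called 26 genes (0.176%), 11 with a more positive (0.0745%) and 15 with a more negative step in WT (0.102%). Sexes are unequal in this test: the KO libraries are male apart from 4-week replicate 3, and the WT libraries apart from 2-week replicate 1. Cyp7b1 rose in WT as given above and stood in KO at 5.73, 5.68 and 5.54 CPM at 2 weeks and 9.58, 14.4 and 3.88 at 4 weeks, a difference of 3.89 ± 0.47 log2 units (edgeR adjusted p = 0.00543). Lpl rose in WT to 909, 1659 and 1449 CPM and in KO from 147, 110 and 140 to 346, 253 and 182 (difference 2.23 ± 0.36, edgeR adjusted p = 0.0221). Eln fell further in WT, to 18.6, 16.8 and 18.4 CPM, than in KO, where it went from 145, 155 and 134 to 51.7, 68.6 and 75.5 (difference -1.61 ± 0.22, edgeR adjusted p = 0.0108). The 4-week libraries of the genotypes did not overlap in these 3 genes, which were picked by the p-value of a test on the same libraries. The share of all genes without such overlap was not counted. Ptpro, a receptor phosphatase of podocyte foot processes, fell in WT from 58.5, 55.7 and 48.4 to 33.3, 29.4 and 29.8 and stood in KO at 42.8, 45.1 and 46.1 and then 51.5, 57 and 64.7. Ednrb, the endothelin B receptor, fell in WT from 143, 125 and 125 to 38.5, 39.7 and 40.9 and in KO from 124, 106 and 103 to 61.3, 68.3 and 64.5. Asxl3, a chromatin gene, was not called in WT (-0.24 ± 0.17), while in KO it went from 9.49, 7.85 and 7.62 to 2.27, 2.15 and 1.66. Ugt1a2 fell in WT as above and was in KO at 425, 239 and 294 and then 267, 348 and 2041, the last being the female library.

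The number of such genes was not stable. It was 4 without WT 2-week replicate 1, 15 without replicate 2 and 10 without replicate 3 of that group, and 75, 1 and 7 without WT 4-week replicates 1, 2 and 3. Without KO libraries it was 9, 6 and 4 at 2 weeks and 233, 21 and 13 at 4 weeks, in replicate order. With sex as a covariate 4 genes were called, among male libraries 1, and in a fit of these 12 libraries alone 0. Of the male-biased list, 15 of 21 rose in KO (median 3.14) against 21 in WT, and no difference was tested for the list. The sexes differ here: KO 4-week replicate 3 is female, while all WT 4-week libraries are male.

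**Figure D5:**
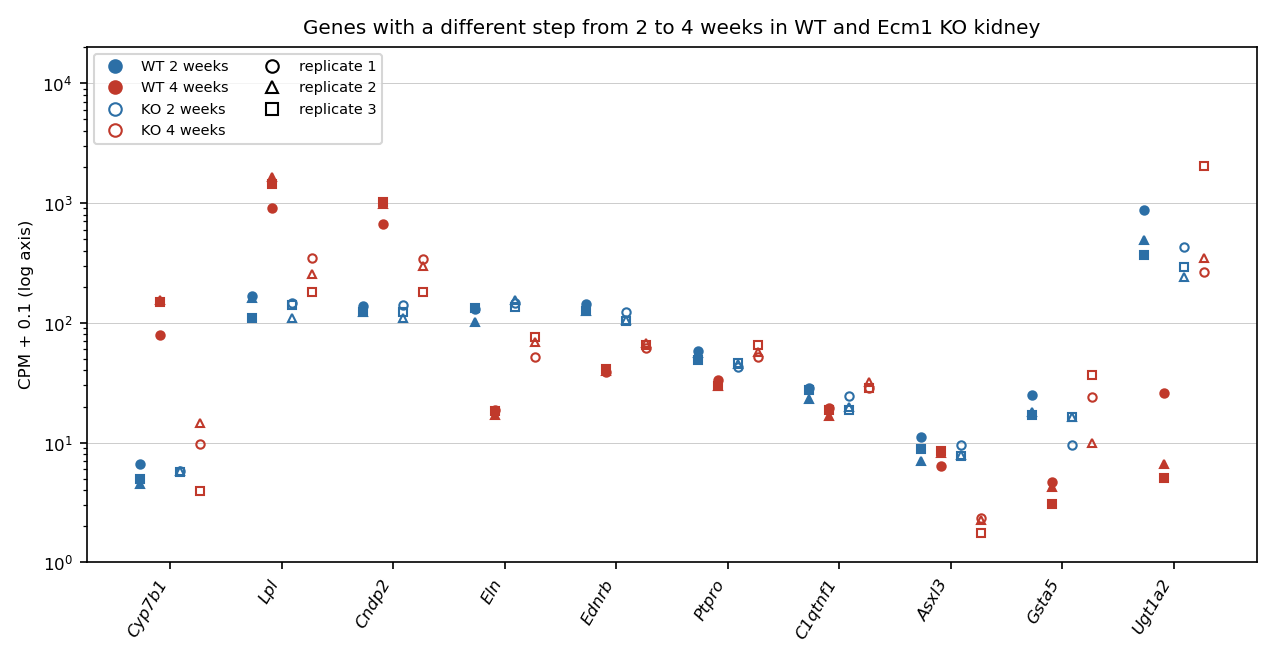
Levels (CPM + 0.1, log axis) of 10 genes in each library of WT (filled) and Ecm1 KO (open) kidney at 2 weeks (blue) and 4 weeks (red), with marker shape for the replicate. Cyp7b1, Lpl and Cndp2 climb further in WT than in KO, and Ugt1a2 spreads from 267 to 2041 CPM among the KO libraries at 4 weeks.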

How the data were processed

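Bead-captured mRNA of whole mouse kidney was sequenced in 18 libraries (3 in each of 6 groups). The deposited table holds, per the file headers, estimated counts and FPKM values per gene. The submitters' processing notes name fastp, HISAT2 2.1.0, StringTie 1.3.1, Bowtie2 and RSEM without order; no source used here gives the genome build, annotation or strandedness. The authors' FPKM values entered only alternatives. Of the deposited estimated counts, 6.86% to 8.44% per library were not whole and were rounded. The table has 22063 genes, 30 of them without a symbol, and no value column was left unassigned.

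Counts were filtered by group (edgeR filterByExpr), scaled by TMM and fitted with edgeR 4.0.16 (R 4.3.3) by its quasi-likelihood test over all 18 libraries as 6 group means, with 12 residual degrees of freedom. This tested 14774 genes with Benjamini-Hochberg adjustment at 0.05. The SE is the absolute log2 fold change over the root of F. Log2 CPM values used a prior count of 2, and a fold against a group at 0 used a floor of 3 counts per library, which covers counting error only. A library was taken as male where Y-linked genes summed to over 5 CPM. On simulated counts for this comparison over 14774 genes, 82% of 100 genes changed by 1 log2 unit and 99% of 100 changed by 2 were recovered, with 14 false calls. The simulation gave all genes a common dispersion, balanced rises and falls in 200 genes, and no outlying library. The real step differs in each of these, so the rates need not carry over to it. Alternatives used DESeq2 1.42.0, limma 3.58.1 on log2(FPKM + 1) or log2(FPKM + 0.1), other scalings, filters and designs.

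Named genes were the 15 largest rises and falls without overlap and with at least 2 CPM, the 15 most abundant called genes with a log2 change of at least 1 in each direction, up to 8 members per list by p and up to 3 against the list's direction, the 10 genes with the smallest p for WT step minus KO step, and markers of other tissues as levels. A subset is printed. Members and the 47 gene lists were chosen with earlier results of these data known. Promoters are from RefSeq (GRCm38.p6), whose coordinates do not refer to the deposited table's build; 11532 of the tested genes had a window. Some results are not reported here.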

Additional observations from a re-analysis of the deposited data

Results flagged for a closer look

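The step from 2 to 4 weeks differed between WT and Ecm1 KO kidney, by edgeR's test of WT step minus KO step, for 26 genes. The difference in log2 units was 3.89 for Cyp7b1, 2.23 for Lpl and 1.80 for Asxl3. Cndp2, a dipeptidase, rose in WT from 138, 122 and 122 to 673, 975 and 1020 CPM and in KO from 141, 109 and 124 to 339, 296 and 182, a difference of 1.68. The difference was -0.94 for Ednrb, -1.61 for Eln and -1.18 for Ptpro. For Ugt1a2 it was -6.98, and for Kynu (kynureninase), plotted among the female-biased genes, -3.10. These calls rest on few libraries: 4 genes were called without WT 2-week replicate 1, and 1 without WT 4-week replicate 2. In KO at 4 weeks, replicate 3, the female library, was the lowest for Cyp7b1, Lpl and Cndp2 and the highest for Ugt1a2, and the part of sex in these differences was not tested apart from the covariate and male-only fits, which called 4 genes and 1 gene.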

How the results depend on the processing

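The counts of genes higher (3468) and lower (3670) at 4 weeks became 1244 and 7949 with library totals alone, 1262 and 7211 with limma on log2(FPKM + 1), 1262 and 7460 on log2(FPKM + 0.1), and 1193 and 7006 on log2(FPKM + 1) with an FPKM of at least 1 in 3 libraries. Those 4 share scaling to a library total. Under the other settings they stayed within 1.5 times, and over the fits that leave out a library they ran from 2932 to 3442 and from 3070 to 3604. The 26 genes called for WT step minus KO step became 180 with DESeq2, 0 with these libraries alone (986 of 14311 at an unadjusted p under 0.05, 6.89%), 4 with sex as a covariate, 1 in male libraries, and 1 to 233 when a library was left out. With the replicate block the counts were 2715 higher, 2647 lower and 0 for the difference (1132 genes, 7.91%, at an unadjusted p under 0.05). Same-numbered libraries did not deviate together (r = 0.0332, 0.0111 and -0.051), so the numbers are not taken to pair them. Of the 184 genes named that were called, none changed direction and 167 kept their call in all settings run for them. Library totals ended 10 calls: Ciita, Cldn10, Cldn12, Csf1r, Etv5, Lhx1, Lrp2, Slc22a8, Slc5a2 and Thrb. Sex as a covariate ended those of Cirbp, Cyp27b1, Mt1 and Slco4c1, these libraries alone those of Cyp27b1 and Slco4c1, and the replicate block those of Ciita and Slc22a8. Single libraries also ended calls for Cirbp, Cyp27b1, Mt1, Slc2a9 and Slco4c1 (2-week replicate 1), Epo and Ren1 (2-week replicate 3), Etv5, Mt1 and Slc22a8 (4-week replicate 1), Cyp27b1, Mt1 and Slco4c1 (4-week replicate 2) and Cldn10, Cyp27b1 and Slco4c1 (4-week replicate 3). All 9 genes named for the difference lost their call with these libraries alone. With 3 libraries per age, 1 of them female, changes of under 1 log2 unit in low genes may go uncalled.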
